A study of Mus musculus with 8 samples.

Results

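The circadian clock genes were followed in adult oligodendrocyte progenitors (aOPC) and adult oligodendrocytes (aOL) of the mouse brain. The 10 genes, chosen by name, were Clock, Arntl, Per1, Per2, Per3, Cry1, Cry2, Nr1d1, Nr1d2 and Dbp. All 10 were present among the 11315 genes of the RNA tables, and 571 of the 1497075 CpG sites read for 5-hydroxymethylcytosine (5hmC) lay in their promoters, exons or introns. Adult OPC were sorted as EGFP-positive cells from Pdgfra-H2BEGFP mice, in which a histone-tagged EGFP marks cells that use the Pdgfra gene, and adult OL from Plp-EGFP mice, in which EGFP is driven by a myelin gene promoter. Both lines were on the C57BL/6 strain, both were taken at postnatal day 60, no animal was lesioned or treated, and the mice lived under a light-dark cycle. The hour at which brains were collected is not given in the sources used here. Each population had 2 RNA-seq libraries and 2 libraries of reduced representation hydroxymethylation profiling (RRHP), numbered replicates 2 and 3. No first replicate was analysed here. The populations came from different reporter lines, so line and population cannot be told apart.

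The clock is a feedback loop of transcription. The proteins of Clock and Arntl (BMAL1) pair and switch on genes that carry an E-box, among them the Per and Cry genes, whose proteins return to the nucleus and hold the pair back. Nr1d1 and Nr1d2 (REV-ERBs) repress Arntl through ROR elements, and Dbp, a direct target of the pair, acts on D-boxes. In most tissues these transcripts rise and fall over the day, with Arntl and the Per genes peaking at different hours. 5hmC is the oxidised form of 5-methylcytosine that TET enzymes make, and it is known to be abundant in the bodies of genes in brain cells.

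The cells were checked against their markers before the clock genes were read. The RNA values are log2 levels brought by the authors to nearly equal quantiles, and they hold no read counts. Values are given below for replicates 2 and 3 in that order. Pdgfra, the receptor that defines OPC, had a level of 7.54 and 5.47 in aOPC and of 4.98 and 1.63 in aOL, and Neu4, an OPC sialidase, of 9.90 and 7.07 against 3.03 and 3.61. Cspg4, the NG2 proteoglycan of OPC, overlapped, at 8.05 and 6.79 against 6.39 and 6.83. Of 11 OPC markers 7 had a lower and 4 a higher mean in aOL, with a median difference of -0.52 log2 units. Myelin markers had differences of both signs. The median level of 10 oligodendrocyte markers was 18.11 and 17.65 in aOPC against 17.95 and 17.93 in aOL, and Mog, a myelin glycoprotein, stood at 17.59 and 17.76 against 16.89 and 17.16, whereas Mbp, myelin basic protein, stood at 19.58 and 17.55 against 19.17 and 19.40. Of the 10, 5 had a higher and 4 a lower mean in aOL, 2 were higher and 3 lower without overlap (31.9% and 29.9% of all tested genes were), and 0 were higher and 3 lower at an unadjusted p under 0.05 (12.1% and 12% were). In bulk samples, fewer cells of a type and less RNA per cell cannot be told apart. The aOPC libraries were also the less alike: 17.6% of tested genes lay over 1 log2 unit apart between them, against 2.56% between the aOL libraries. RRHP totals ran from 7113237 to 27057859 reads, the lowest in aOPC replicate 2, where 5.74% of reads fell in CpG islands against 2.38% to 3.32% in the other libraries.

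RRHP reads only CpG sites inside CCGG, the recognition site of MspI, where 5hmC blocks cutting once it is glucosylated. The 3 sites of the clock genes that differed between the populations are shown first, 30 bases each, with the CCGG in capitals. All sequences are from the GRCm38 mouse genome.

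Per3 intron 19, chr4:151008534-151008563, plus strand: gaaatgaactttcCCGGcccccctctgcca
Per3 intron 4, chr4:151038410-151038439, plus strand: tagtgacagcccaCCGGcctttcttaaata
Nr1d2 intron 1, chr14:18226079-18226108, plus strand: gaccctggagtgcCCGGggtaaggaacagt

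The sites with the most 5hmC reads in Arntl, Per3 and Cry1 follow. Each lies in an intron, and each was read in all 4 libraries.

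Arntl intron 1, chr7:113227422-113227451, minus strand: ctctgaagggaatCCGGgttttatttcacg
Per3 intron 5, chr4:151035642-151035671, minus strand: ctgattggccaacCCGGtgccacctgcacc
Cry1 intron 1, chr10:85169665-85169694, minus strand: tctctgtgtagccCCGGatgtcctggaact

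The elements named above were searched for in the promoters. RefSeq promoter windows of 300 bases (GRCm38, 250 before and 50 after a start) were found for 9 of the 10 genes, all but Per2, and were searched on both strands. An E-box, CACGTG, was present in the windows of Per1 and Cry1 and in 7.15% of all 32851 windows. The related CACGTT, which reads as AACGTG from the opposite strand and overlaps none of these E-boxes, was present in Cry1, Cry2 and Nr1d1 and in 4.68% of all windows. A D-box, TTANGTAA, occurred 2 times in Per3 and in 2.32% of all windows, and an ROR element, ANTAGGTCA, in Arntl and in 0.661%. A match of letters says nothing about binding in these cells. The E-boxes, the AACGTG of Cry1, D-boxes, the ROR element and every CCGG are in capitals below, and the Arntl stretch lies just inside the transcript.

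Per1 promoter, chr11:69098759-69098948, plus strand: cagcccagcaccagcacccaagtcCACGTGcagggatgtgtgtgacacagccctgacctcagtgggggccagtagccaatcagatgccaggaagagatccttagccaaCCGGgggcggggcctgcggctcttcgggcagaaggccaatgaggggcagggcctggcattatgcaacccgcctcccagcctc
Cry1 promoter, chr10:85185055-85185264, minus strand: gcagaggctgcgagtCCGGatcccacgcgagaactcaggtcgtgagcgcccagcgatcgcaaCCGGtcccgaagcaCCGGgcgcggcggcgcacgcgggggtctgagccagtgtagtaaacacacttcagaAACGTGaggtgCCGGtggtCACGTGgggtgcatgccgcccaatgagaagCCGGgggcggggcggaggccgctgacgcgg
Per3 promoter, chr4:151044708-151044885, minus strand: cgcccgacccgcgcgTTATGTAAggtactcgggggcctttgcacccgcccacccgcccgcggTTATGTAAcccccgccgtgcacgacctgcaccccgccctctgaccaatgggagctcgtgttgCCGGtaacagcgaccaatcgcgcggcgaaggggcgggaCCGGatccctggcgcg
Arntl ROR element, chr7:113207529-113207558, plus strand: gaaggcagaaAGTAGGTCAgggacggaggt

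The CpG in the middle of CACGTG is not part of a CCGG, so RRHP does not read the E-box itself. The neighbouring CCGG sites had few reads. The Per1 stretch holds 1 CCGG, with 6 and 1 reads in aOPC against 0 and 2 in aOL. The 5 CCGG of the Cry1 stretch had 12 and 16 reads in aOPC against 11 and 22 in aOL, and the 2 of the Per3 stretch had 2 and 1 against 1 and 4. None of these sites had enough reads to be tested.

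In RNA, the activator Clock stood higher and the repressor Per1 lower in both aOL libraries than in either aOPC library. Nr1d2 was on the side of Clock and Dbp on the side of Per1, whereas Cry2 and Per3 overlapped between the populations. None of the 10 genes was called by limma at p under 0.01 and an adjusted p under 0.05, thresholds that 0.0808% of the 11133 tested genes passed (0.00898% higher and 0.0719% lower in aOL). At an unadjusted p under 0.05 there were 4 clock genes, Clock and Nr1d2 higher and Per1 and Dbp lower, against 24% of all tested genes. The populations did not overlap for 8 of the 10, 5 higher and 3 lower in aOL, against 61.8% of all tested genes (31.9% higher and 29.9% lower). The median difference of the 10 genes, aOL minus aOPC, was 0.35 log2 units, against 0.02 for all tested genes.

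Of the activators, Clock, a bHLH-PAS transcription factor, had levels of 11.69 and 11.64 in aOPC and of 12.76 and 12.57 in aOL. The aOL libraries were thus both about 1 log2 unit above the aOPC libraries, which differed little from each other. The difference was 1.004 ± 0.196 log2 units (SE, n = 2 libraries per population), or 2.01-fold, with a limma adjusted p of 0.133. Arntl, the partner of Clock, had levels of 8.97 and 9.12 in aOPC and of 9.33 and 9.54 in aOL. Its difference was 0.39 ± 0.21 with a limma adjusted p of 0.314, and the 95% interval ran from -0.17 to 0.96. Both activators were therefore higher in both aOL libraries, Arntl by less than Clock. Leaving out aOPC replicate 2 or aOPC replicate 3 brought Clock past the thresholds (1.03, limma adjusted p of 0.0196, and 0.98, limma adjusted p of 0.0420). In those fits the single aOPC library is assumed to vary as the aOL libraries do, and 36.3% and 21.3% of all tested genes were called.

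The 3 Per genes, whose proteins form the repressor complex with CRY, did not share a direction. Per1 had levels of 11.12 and 10.58 in aOPC and of 9.73 and 9.33 in aOL. Every aOL value lay below every aOPC value, and the gap exceeded the spread within each population. The difference was -1.32 ± 0.30 log2 units, 2.49-fold higher in aOPC, with a limma adjusted p of 0.142, and it became a call without aOPC replicate 3 (-1.59, limma adjusted p of 0.0420) but not without aOPC replicate 2 (-1.05, limma p of 0.0182). Per2 had levels of 6.91 and 4.21 in aOPC and of 7.69 and 7.76 in aOL. It was the member with the widest range, 3.55 log2 units over the 4 libraries, most of it between the aOPC libraries. Its difference of 2.17 ± 0.96 had a limma adjusted p of 0.258, and the value hung on the aOPC library used, at 3.52 without aOPC replicate 2 (limma adjusted p of 0.0151) and 0.82 without aOPC replicate 3 (limma adjusted p of 0.0413). Per3, known as dispensable for daily rhythms in the mouse, had levels of 9.84 and 8.70 in aOPC and of 9.63 and 9.53 in aOL. The aOL values fell between the aOPC values, and the difference of 0.31 ± 0.44 (limma adjusted p of 0.678) turned to 0.88 without aOPC replicate 2, then a call (limma adjusted p of 0.0183), and to -0.26 without aOPC replicate 3 (limma adjusted p of 0.167).

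The cryptochromes, which repress the CLOCK and BMAL1 pair directly, were also unlike each other. Cry1 had levels of 9.88 and 11.17 in aOPC and of 11.40 and 11.43 in aOL. Both aOL libraries were above both aOPC libraries, but aOPC replicate 3 came within a small distance of them. The difference of 0.89 ± 0.48 had a limma adjusted p of 0.326, and became 1.53 without aOPC replicate 3 (limma adjusted p of 0.0376) and 0.24 without aOPC replicate 2 (limma adjusted p of 0.135). Cry2 was the steadiest clock gene, at 11.47 and 11.49 in aOPC against 11.48 and 11.62 in aOL. Its difference was 0.07 ± 0.19 (limma adjusted p of 0.835), with a 95% interval from -0.45 to 0.59.

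The REV-ERB genes, which encode haem-binding nuclear receptors, pointed to opposite sides. Nr1d1 had levels of 11.40 and 11.05 in aOPC and of 10.95 and 10.86 in aOL. Its difference of -0.32 ± 0.22 had a limma adjusted p of 0.415 and a 95% interval from -0.93 to 0.28, and it was -0.15 without aOPC replicate 2 and -0.50 without aOPC replicate 3. Nr1d2 had levels of 11.81 and 11.43 in aOPC and of 12.36 and 12.34 in aOL. All of its aOL values were above all of its aOPC values, by 0.73 ± 0.23 log2 units or 1.65-fold (limma adjusted p of 0.181), and the gene was called without aOPC replicate 2 (0.92, limma adjusted p of 0.0160) but not without aOPC replicate 3 (0.53, limma adjusted p of 0.0509). Within a library, Nr1d2 exceeded Nr1d1 by 0.41 and 0.37 log2 units in aOPC and by 1.41 and 1.48 in aOL, on the deposited scale. That ratio varied little between the libraries of a population. Dbp, the PAR bZIP output factor, had levels of 9.16 and 9.07 in aOPC and of 8.40 and 8.66 in aOL. It was lower in both aOL libraries, by -0.59 ± 0.21 log2 units (1.51-fold higher in aOPC, limma adjusted p of 0.200), and stayed outside the thresholds without either aOPC library.

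**Figure D1:**
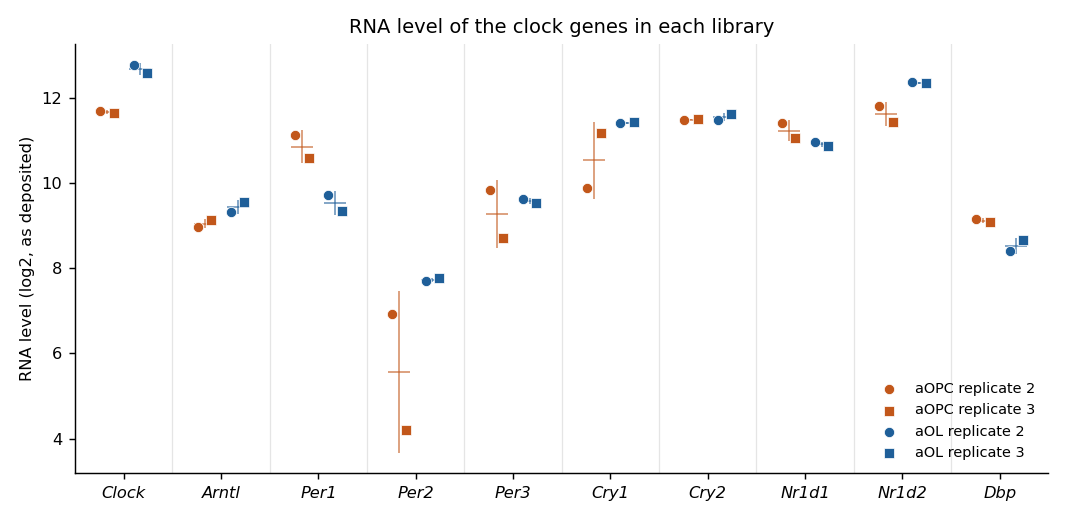
RNA level of each clock gene (log2 as deposited, y axis) in the 4 libraries; circles are replicates 2, squares replicates 3, orange aOPC and blue aOL, and lines give the mean ± SD of the 2 libraries. Clock sits at 12.57 and 12.76 in aOL above 11.64 and 11.69 in aOPC, Per1 the other way round, and Per2 spans 4.21 to 6.91 within aOPC.

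Per kilobase of exon, Per2 was the least abundant clock transcript in every library. Levels were compared between genes after subtracting the log2 of the exon length, on the reading that the deposited values are not per length. In aOPC the order was Nr1d1 (9.61), Nr1d2 (9.18), Cry2 (8.82), Cry1 (8.79), Per1 (8.35), Clock (7.89), Dbp (7.53), Arntl (6.13), Per3 (6.00) and Per2 (3.01). In aOL it was Nr1d2 (9.91), Cry1 (9.68), Nr1d1 (9.28), Cry2 (8.89), Clock (8.89), Per1 (7.04), Dbp (6.94), Arntl (6.52), Per3 (6.31) and Per2 (5.18). By these means the lower end, from Dbp to Per2, had the same order in both, whereas Nr1d1 ranked first in aOPC and below Nr1d2 and Cry1 in aOL, and Clock ranked below Per1 in aOPC and above it in aOL. Of the 9 neighbouring pairs, the libraries of 3 overlapped in aOPC (Cry2 with Cry1, Cry1 with Per1, Arntl with Per3) and of 2 in aOL (Cry2 with Clock, Per1 with Dbp), so those orders are not distinguished. Within a library, Clock exceeded Per1 on the deposited scale by 0.57 and 1.06 log2 units in aOPC and by 3.04 and 3.24 in aOL.

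Per1 is also known to respond within minutes to stimuli, as immediate early genes do, and most listed genes of that class stood far higher in 1 aOPC library. Egr3 (5.08 and 5.18 in aOPC against 1.57 and 1.63 in aOL), Jund (14.61 and 14.49 against 13.67 and 13.77) and Fosl2 (4.57 and 5.35 against 5.56 and 5.14) did not. Fos, the prototype of the class, had levels of 16.30 and 11.20 in aOPC and of 10.37 and 10.34 in aOL, Egr1 of 15.38 and 9.24 against 9.40 and 9.65, and Junb of 13.86 and 8.92 against 8.29 and 8.53. Of 15 listed immediate early genes, 14 were lower in aOL by the mean and 9 were lower and 0 higher without overlap (29.9% and 31.9% of all tested genes were), with Egr3 called lower and a summed level (log2) of 18.12 and 15.58 in aOPC against 15.24 and 15.34 in aOL. Per1 was also highest in aOPC replicate 2, at 11.12, and it was above both aOL libraries in aOPC replicate 3 as well, at 10.58, as Fos and Junb were. The part of this class in the Per1 difference was not tested. Cells passed a Percoll gradient, a step meant to discard blood vessels, before the sort, and only 2 of 8 endothelial markers were listed. Of these, Cldn5 had levels of 0.33 and 1.80 in aOPC and of 5.92 and 7.13 in aOL, the summed level (log2) was 9.07 and 9.37 against 9.83 and 10.25, and both listed markers were higher in aOL without overlap, as 31.9% of all tested genes were, with 0 called by limma (2 at an unadjusted p under 0.05). The markers of the other cell types mostly had lower means in aOL. Of 8 astrocyte markers 6 had a lower mean in aOL (median difference -0.60), with a summed level (log2) of 13.74 and 13.42 in aOPC against 13.42 and 13.64 in aOL. Gfap stood at 10.06 and 9.59 against 9.11 and 9.10, while Aqp4 (8.28 and 7.86 against 8.19 and 6.66) and Aldh1l1 (7.48 and 6.14 against 7.37 and 7.47) overlapped. Of 9 microglia markers 6 had a lower mean in aOL (median difference -0.51), with a summed level of 12.46 and 11.87 against 12.07 and 11.65, and Csf1r, Cx3cr1 and P2ry12 overlapped, with differences of 0.28, -0.60 and -0.54. All 4 tested neuron markers had a lower mean in aOL (median difference -0.47), though Snap25 differed by -0.0041, and their list summed to 12.14 and 12.46 against 11.68 and 11.84. Without overlap, 2 astrocyte, 3 microglia and 2 neuron markers were lower in aOL and 1, 1 and 0 higher (29.9% and 31.9% of all tested genes were). At an unadjusted limma p under 0.05, 1 marker of each of these lists was lower and 0 higher (12% and 12.1% of all tested genes were). The part of endothelial or any of these other cells in the clock gene values was not tested.

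The genes around the loop gave the same kind of picture, with differences of both signs and none past the thresholds. Of 59 genes fixed as partners, feedback factors, kinases and phosphatases, degradation factors, chromatin cofactors and outputs of the clock, 52 were listed and tested, and 0 were called by limma. At an unadjusted p under 0.05 there were 8, with 4 higher and 4 lower in aOL, and 26 did not overlap between the populations (16 higher and 10 lower). Those shares lay below the 24% and 61.8% of all tested genes. The median difference over the 52 was -0.03 log2 units, against 0.02 for all tested genes. Without aOPC replicate 2 there were 14 calls among the 52, and without aOPC replicate 3 there were 13, in fits that called 36.3% and 21.3% of all genes.

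Among outputs, 7 of 9 tested genes had a lower mean in aOL. Without overlap, 4 were lower and 0 higher, against 29.9% and 31.9% of all tested genes. Cirbp, a cold-inducible RNA-binding protein whose level follows body temperature rhythms, had levels of 12.28 and 12.11 in aOPC and of 11.09 and 11.01 in aOL. Its difference of -1.14 ± 0.20 log2 units had a limma p of 0.00373 (adjusted 0.127). Rbm3, its close relative, had levels of 11.31 and 10.51 in aOPC and of 8.91 and 9.28 in aOL, a difference of -1.81 ± 0.36 (limma p of 0.00634, adjusted 0.133). Both cold-inducible genes were thus lower in both aOL libraries, by more than their spread, and neither passed the adjusted threshold. Cdkn1a, a cell cycle inhibitor, differed by -1.22 ± 0.46, and Tsc22d3, a glucocorticoid-induced gene, by -0.47 ± 0.19, both without overlap.

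Among feedback factors, 7 were tested and the lower one at an unadjusted p under 0.05 was Ciart, a repressor of the CLOCK and BMAL1 pair. Ciart had levels of 8.56 and 8.39 in aOPC and of 7.62 and 7.82 in aOL, a difference of -0.75 ± 0.21 (limma p of 0.0203, adjusted 0.164). Both of its aOL values lay below both aOPC values. Of the activator partners, only Rora and Rorb were listed, and Rorb, a nuclear receptor that acts on ROR elements, had levels of 6.38 and 4.21 in aOPC and of 6.66 and 6.56 in aOL, with a difference of 1.31 ± 0.78 (limma adjusted p of 0.359).

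Enzymes that act on PER and CRY proteins were split. Prkaa2, a catalytic subunit of AMP-activated kinase, which marks CRY1 for degradation, had levels of 8.86 and 8.54 in aOPC and of 9.79 and 9.75 in aOL, a difference of 1.07 ± 0.21 (limma p of 0.00680, adjusted 0.133). Its sister subunit gene Prkaa1 differed by 0.47 ± 0.32, also without overlap. Ppp1ca, a protein phosphatase 1 subunit, differed by -0.71 ± 0.26 (limma p of 0.04998, adjusted 0.208). Of the degradation factors, Fbxw11, an F-box protein that recognises phosphorylated PER, stood at 13.08 and 12.57 in aOPC and at 13.78 and 13.67 in aOL, a difference of 0.90 ± 0.26 (limma p of 0.0241, adjusted 0.170). Ddb1, a ubiquitin ligase adaptor, differed by 0.55 ± 0.19 (limma p of 0.0404, adjusted 0.194) and Skp1a, a subunit of F-box ligases, by -0.72 ± 0.34. The casein kinase genes Csnk1d and Csnk1e, the main PER kinases, were tested and met no criterion for naming values.

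Of 14 chromatin cofactors, Ncoa2, a p160 coactivator, had the largest difference among those without overlap. Its levels were 11.89 and 10.84 in aOPC against 13.005 and 12.902 in aOL, a difference of 1.59 ± 0.41 (limma p of 0.0166, adjusted 0.155). Ep300, the acetyltransferase p300, differed by 0.81 ± 0.51 and Sirt1, a NAD-dependent deacetylase, by 0.47 ± 0.31. Hdac3, the deacetylase that works with REV-ERB, differed by -0.65 ± 0.26 (limma p of 0.0679). Of the 14, 6 were higher and 3 lower in aOL without overlap, against 31.9% and 29.9% of all tested genes.

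Many of these values hung on the aOPC library used. Without aOPC replicate 2 and without aOPC replicate 3 the difference was 2.40 and 0.23 for Rorb, 1.49 and 0.13 for Ep300, and 0.11 and 0.83 for Sirt1. It was 0.092 and 0.85 for Prkaa1, -1.13 and -0.31 for Skp1a, -0.97 and -0.45 for Ppp1ca, -0.62 and -1.82 for Cdkn1a, and -0.39 and -0.90 for Hdac3. Cirbp, Rbm3, Prkaa2 and Ncoa2 were called by limma without either one, Rorb, Ep300, Skp1a, Ppp1ca and Fbxw11 without aOPC replicate 2, and Sirt1, Prkaa1, Cdkn1a, Hdac3 and Ciart without aOPC replicate 3.

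**Figure D2:**
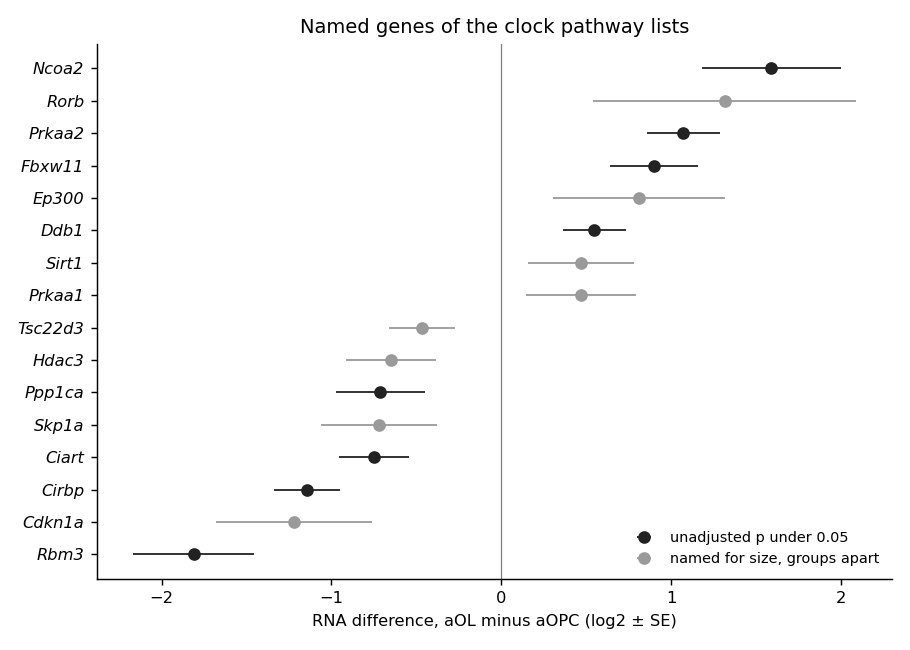
RNA difference (aOL minus aOPC, log2 ± SE, x axis) of the 16 named genes of the pathway lists; black marks the 8 at an unadjusted p under 0.05, grey those named for size. Rbm3 at -1.81 and Ncoa2 at 1.59 are the ends of the range, and no gene passed the adjusted threshold.

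The genes whose profile over the 4 libraries was most like that of Per2, by Euclidean distance between centred log2 profiles among 11132 genes, were Tab3 (0.260), Vav2 (0.311) and Irf5 (0.399). Tab3 had levels of 8.75 and 6.39 in aOPC and of 9.77 and 9.70 in aOL. With 4 points the likeness rests mainly on the gap between the aOPC libraries.

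In DNA, 5hmC reads of the clock genes lay in the introns and exons away from the start. Of the 571 sites, 467 were in gene bodies (exon or intron) and 202 in promoters, with 98 in both, and the promoter sites ran from -863 to 2193 bases around the RefSeq transcript start. Reads per site, as reads scaled to a common library total with TMM factors (CPM), averaged 0.129 for the 145 sites within 500 bases downstream of the start or upstream of it. They averaged 0.242 at 500 to 2000 bases, 0.845 at 2000 to 10000 bases and 1.04 for the 227 sites farther in. The rise was seen in each library, from 0.262 to 1.02 CPM in aOPC replicate 2, from 0.0800 to 1.06 in aOPC replicate 3, from 0.0650 to 1.03 in aOL replicate 2 and from 0.110 to 1.05 in aOL replicate 3. The 187 sites in CpG islands averaged 0.167 CPM and the 384 outside 0.882, against 0.204 and 0.732 over all sites read. Introns held 329 sites at a mean of 0.837 CPM and exons 138 at 0.584.

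**Figure D3:**
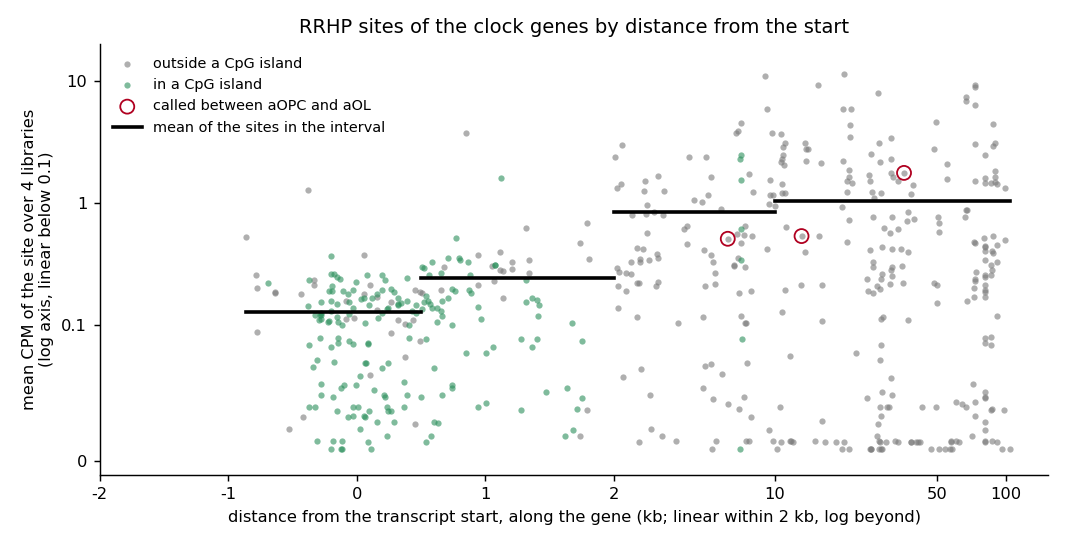
Mean CPM over 4 libraries (y axis, log above 0.1) of the 571 RRHP sites by distance from the transcript start in kb (x axis, linear within 2 kb); green sites lie in CpG islands, black lines are interval means and red circles the 3 called sites. Means rise from 0.129 CPM around the start to 1.04 CPM beyond 10 kb, and all 3 called sites lie over 6 kb inside the gene.

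Gene bodies differed more between clock genes than between populations. Per site, Per3 (1.14 CPM) and Arntl (1.10) had the most reads and Dbp (0.209) and Clock (0.302) the fewest. They stood at the 86.7, 85.1, 11.1 and 20.2 percentile of 18488 gene bodies. Clock, a long gene, had a read at 43.18% of its CCGG and Dbp, a short one, at 92.0%. Read totals in the body of Arntl were 638 and 1978 in aOPC against 1938 and 2908 in aOL, and in that of Per3 543 and 1480 against 1274 and 2167. Scaled to library size, these gave 89.2 and 116.9 CPM against 121.1 and 107.4 for Arntl, and 75.9 and 87.5 against 79.6 and 80.01 for Per3. Neither separated the populations.

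No clock gene body was called by edgeR at an adjusted p under 0.05, which 0.849% of 18488 bodies passed, and 1 of 10 had an unadjusted p under 0.05 against 7.3% of all. DESeq2 also called 0 of the 10. The populations did not overlap for 5 of 10 bodies, 1 higher and 4 lower in aOL, against 38.1% of all (18.8% higher and 19.3% lower). Dbp was the body with the smallest p: 81 and 95 reads in aOPC against 61 and 140 in aOL, or 11.3 and 5.62 CPM against 3.81 and 5.17. The level in aOPC replicate 2 stood apart from the other 3. The log2 difference of -0.85 ± 0.35 had an edgeR p of 0.0352 and an adjusted p of 0.632, and it became a call without aOPC replicate 3 (-1.30, edgeR adjusted p of 6.95e-05), a fit in which 22.6% of all bodies were called. It was -0.30 without aOPC replicate 2 (edgeR adjusted p of 0.952) and -0.13 over sites with 3 reads in every library (edgeR adjusted p of 0.953). Of the Dbp body reads, 70 and 83 in aOPC and 58 and 116 in aOL lay outside CpG islands.

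Cry2 bodies had 20.5 and 16.9 CPM in aOPC against 13.1 and 15.5 in aOL, a log2 difference of -0.37 ± 0.17 (edgeR adjusted p of 0.707, -0.50 with an adjusted p of 0.0290 without aOPC replicate 3, and -0.23 with an adjusted p of 0.826 without aOPC replicate 2). Some exon sites of Cry2 also name another gene, and over sites naming 1 gene the difference was -0.70 (edgeR adjusted p of 0.601). For Cry1 the values were 24.04 and 22.34 against 19.2 and 19.7 CPM, a difference of -0.24 ± 0.14 (edgeR adjusted p of 0.750). Nr1d1 followed with 22.2 and 22.5 against 20.1 and 18.6 CPM (-0.21 ± 0.14, edgeR adjusted p of 0.764). Both cryptochromes and Nr1d1 were therefore lower in both aOL libraries by small amounts. For Nr1d1 this held in CpG islands only, at 13.8 and 7.45 CPM in aOPC against 5.85 and 6.59 in aOL with the site scaling. Outside islands the Nr1d1 body overlapped, at 11.4 and 13.8 against 12.9 and 11.8 CPM. Cry1 stayed lower there, at 21.8 and 19.8 against 16.6 and 17.9 CPM. Per1 was the one body higher without overlap, with 5.73 and 10.2 CPM in aOPC against 10.6 and 11.1 in aOL (0.39 ± 0.25, edgeR adjusted p of 0.757, 0.93 with an adjusted p of 0.00438 without aOPC replicate 3, and 0.095 with an adjusted p of 0.9995 without aOPC replicate 2). It had only 41 reads in aOPC replicate 2. Clock had 13.7 and 14.2 CPM in aOPC against 14.1 and 22.0 in aOL (0.38 ± 0.21, edgeR adjusted p of 0.737). The Clock value was 0.019 without aOL replicate 3 and 0.66 without aOL replicate 2. Nr1d2 (0.11 ± 0.15), Per2 (0.00 ± 0.13), Per3 (-0.04 ± 0.13) and Arntl (0.14 ± 0.15) overlapped between the populations, and Arntl was called without aOPC replicate 3 (0.36, edgeR adjusted p of 0.0261).

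**Figure D4:**
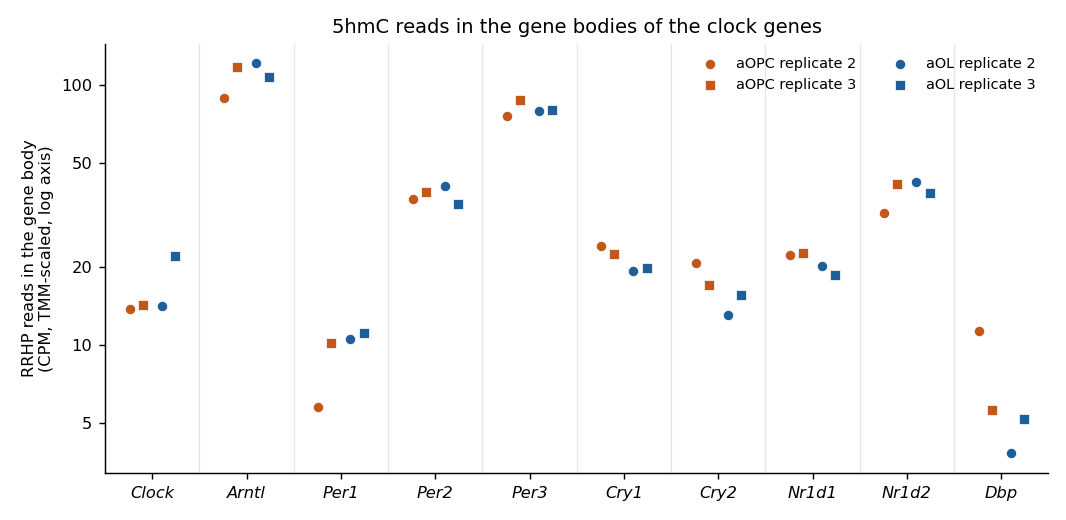
RRHP reads in each clock gene body (CPM after TMM scaling, log y axis) in the 4 libraries, with symbols and colours by library. Arntl and Per3 bodies lie at 75.9 to 121.1 CPM in every library, and Dbp is highest in aOPC replicate 2 at 11.3 CPM.

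In promoters, reads were few. The sums ranged from 13 to 123 reads per gene and library apart from Per2, at 5 to 37, and no promoter of the 10 was called by edgeR, against 0.768% of 14579, or by DESeq2, and 0 had an unadjusted p under 0.05, against 5.97%. Cry2 had the smallest p, with 56 and 82 reads in aOPC against 35 and 95 in aOL and a log2 difference of -0.64 ± 0.38 (edgeR p of 0.108, adjusted 0.998). Arntl (-0.36 ± 0.37) and Per3 (-0.36 ± 0.44) were the other promoters lower without overlap, 3 of 10 lower and 0 higher in all, against 17.3% and 14.4% of all promoters (31.7% in both directions). The Per3 value was -0.054 without aOL replicate 2 and -0.87 without aOL replicate 3, and that of Cry2 was -0.39 without aOPC replicate 3. The scaling factor of aOPC replicate 2 was 1.75 for promoters and 0.757 to 0.936 for the other libraries, and without TMM the median of the 10 moved from -0.19 to -0.86 while that of all promoters moved from -0.01 to -0.60. The median of the 10 was -0.02 without aOPC replicate 2 and turned to 0.07 without aOL replicate 2. Of the Cry2 reads, 80.6% came from 1 site in intron 1, chr2:92433216, 853 bases inside the gene. That site had 41 and 73 reads in aOPC against 27 and 75 in aOL, or 6.51 and 4.09 CPM against 1.58 and 2.74. It was lower in both aOL libraries (log2 difference of -1.20 ± 0.36, edgeR p of 0.00458, adjusted 0.137) and became a call without aOPC replicate 3 (-1.57, edgeR adjusted p of 0.0133) but not without aOPC replicate 2 (-0.86, edgeR adjusted p of 0.292). In the Per1 promoter the strongest site, chr11:69098571, 378 bases before the start, had 17 and 14 reads in aOPC against 8 and 31 in aOL, with no order between the populations. All 48 promoter sites of Clock also lie in the column of the microRNA gene Mir1191.

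Of the 571 sites, 147 had at least 10 reads in 2 libraries and were tested, and 3 were called by edgeR, 1 higher and 2 lower in aOL. That is 2.04% of the tested sites, against 2.29% of 443062 over the genome (1.21% higher and 1.08% lower), and 13 sites had an unadjusted p under 0.05, or 8.84% against 9.75%. At chr4:151008548, in intron 19 of Per3, there were 26 and 45 reads in aOPC against 2 and 8 in aOL. In CPM the site had 4.13 and 2.52 against 0.117 and 0.293. The log2 difference was -3.81 ± 0.53, or 14.0-fold higher in aOPC (edgeR adjusted p of 4.80e-04), and it was -3.39 without aOL replicate 2 and -4.65 without aOL replicate 3. At chr4:151038424, in intron 4 of Per3, the reverse held, with 0 and 0 reads in aOPC against 13 and 35 in aOL. Against the mean CPM of 3 reads in each aOPC library, this was at least 3.17-fold higher in aOL (edgeR adjusted p of 0.00688).

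At chr14:18226093, in intron 1 of Nr1d2, there were 10 and 10 reads in aOPC against 0 and 0 in aOL. Against the mean CPM of 3 reads in each aOL library, it was at least 7.53-fold lower in aOL (edgeR adjusted p of 0.0107). The 3 sites had 0 reads on the opposite strand of the same CCGG in all libraries. Leaving out either library of the population with the reads left the site with fewer than 2 libraries at 10 reads, and so untested. None of them had 10 reads in every library. Of the 66 clock gene sites that did, 0 were called, against 0.286% of 171055 such sites over the genome. In windows of 5 Mb, called sites with reads in only 1 population made up 9.39% of the tested sites around Nr1d2 and 3.07% around Per3, ranks 22 and 87 of 532 windows, against 1.75% over all windows. Whether the reporter lines differ in the CCGG itself was not tested.

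The strongest sites of the clock genes were read in every library, and none was called. The Arntl site printed above, chr7:113227437, had 79 and 197 reads in aOPC against 195 and 284 in aOL, or 12.5 and 11.04 against 11.4 and 10.4 CPM. At the Per3 site, chr4:151035657, the values were 12.5 and 13.1 CPM in aOPC against 8.43 and 9.81 in aOL (log2 difference of -0.49 ± 0.25, edgeR adjusted p of 0.579), and at the Cry1 site, chr10:85169680, 10.01 and 10.31 against 8.48 and 8.05 CPM (-0.30 ± 0.25, edgeR adjusted p of 0.790). That Cry1 site alone held 44.0% of the reads in the gene body. Per2 had its strongest site in intron 9, chr1:91437925, at 7.94 and 6.84 CPM in aOPC against 3.86 and 4.83 in aOL (-0.74 ± 0.28, edgeR adjusted p of 0.333). The highest site of Cry2 in an exon, chr2:92412957, had 6.35 and 4.15 CPM in aOPC against 3.63 and 3.37 in aOL (-0.53 ± 0.31, edgeR adjusted p of 0.654). The Cry2 site also lies in the intron column of the gene D930015M05Rik, so its reads cannot be given to Cry2 alone, and its value was -0.24 without aOPC replicate 2 and -0.90 without aOPC replicate 3. The sites of Per2, Per3 and Cry2 were thus lower in both aOL libraries, and none passed the edgeR threshold. That of Cry1 was lower in both with TMM factors and overlapped by library totals alone (-0.20, and -0.13 with 10 reads in every library).

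Clock and Nr1d2 had strongest sites that were higher in both aOL libraries. In intron 22 of Clock, chr5:76223758 had 7 and 27 reads in aOPC against 48 and 124 in aOL, or 1.11 and 1.51 CPM against 2.81 and 4.54 (1.43 ± 0.38, edgeR adjusted p of 0.0789). This site gave 17.8% of the reads of the Clock body, and it was called with a filter of 3 reads in place of 10, as 2.33% of all sites were, and without aOPC replicate 3, as 6.74% were. In intron 1 of Nr1d2, chr14:18232008 had 2.54 and 4.87 CPM in aOPC against 5.38 and 5.16 in aOL (0.41 ± 0.32, edgeR adjusted p of 0.764), with a difference of 0.12 without aOPC replicate 2 and 1.01 without aOPC replicate 3. The strongest body sites of Per1 (chr11:69101655, intron 5), Nr1d1 (chr11:98773197, intron 1) and Dbp (chr7:45709684, exon 4) overlapped between the populations, at 0.915 to 3.53 CPM.

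The RNA and 5hmC differences of the clock genes were set side by side, since the RNA and DNA came from the same pellets. RNA and gene body differences had the same sign for 6 of the 10 genes, against 55.3% of the 10388 genes tested in both. Dbp was lower in aOL in both, with 9.16 and 9.07 against 8.40 and 8.66 in RNA and a body difference of -0.85, which was -0.30 without aOPC replicate 2. Clock was higher in both by the mean, 1.004 in RNA and 0.38 in the body, the latter 0.019 without aOL replicate 3. Per1 had values of -1.32 in RNA and 0.39 in the body, the latter 0.095 without aOPC replicate 2. Per2, with the widest RNA difference of 2.17, had a body difference of 0.00 ± 0.13. None of these pairs contains a called difference in either assay.

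**Figure D5:**
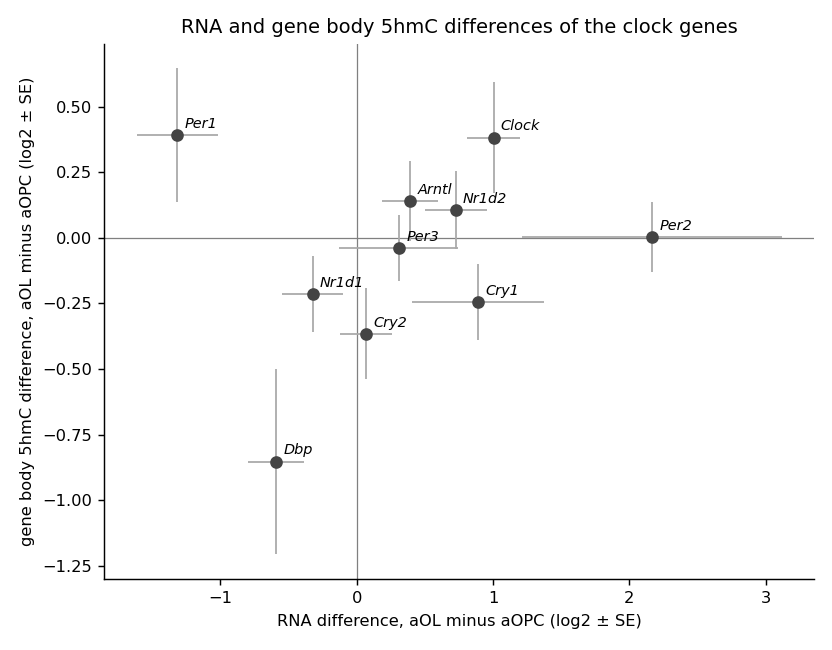
RNA difference (x axis) and gene body 5hmC difference (y axis) of the 10 clock genes, aOL minus aOPC, both log2 ± SE. Dbp lies lower left at -0.59 and -0.85, Clock upper right at 1.004 and 0.38, Per1 upper left, and Per2 far right on the zero line of 5hmC.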

How the data were processed

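RNA-seq and RRHP were measured in sorted aOPC and aOL at postnatal day 60, 2 libraries per population and assay. The clock genes and the pathway, marker and immediate early gene lists were chosen with earlier results of these data known. Groups came from the sample titles. For RRHP of aOL the tissue field gives the Pdgfra reporter instead, and the aOL RNA titles call the cells pre-myelinating where the protocol calls them myelinating.

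The deposited RNA values are log2 levels per gene symbol with nearly equal quantiles in the 4 libraries, made by the authors from reads aligned to mm10 with BWA and counted over exons with featureCounts. The step to log2 is not given in the sources used here. The study's methods list mapped reads per RNA library, but the deposited values hold no counts, so no count model could be used and no interval covers counting. Equalised quantiles remove a difference shared by most genes.

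The deposited RRHP values are unnormalised counts of reads at each CpG and strand, on mm10, with the authors' promoter, exon, intron and CpG island columns. Aligner, duplicate handling and site filter are not given in the sources used here. A site missing from a pair of libraries was given a count of 0. All 571 sites of the clock genes lay at a CCGG of GRCm38. Library totals were 7113237 and 17121440 (aOPC) and 15923775 and 27057859 (aOL), and a floor of 3 counts covers counting error only. Reads carried no molecular identifiers.

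Here, RNA was tested with limma 3.58.1 (log2 of at least 5 in at least 2 libraries, called at p under 0.01 and a Benjamini-Hochberg adjusted p under 0.05). RRHP was tested with edgeR 4.0.16 (quasi-likelihood, TMM, sites with at least 10 reads in 2 libraries, filterByExpr for sums, adjusted p under 0.05), with DESeq2 1.42.0 as an alternative. Intervals are at 95%. The p-values measure the spread between 2 libraries per population, with each variance drawn towards those of all features tested. The design had foreseen the log2 unit.

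Values were named by rule. The rule took all 10 members, the pathway genes at an unadjusted p under 0.05 and then the largest without overlap up to 16, the first 3 markers of each list (1 of them is not reported here), every called site, the highest tested site of each body and promoter, and the 3 genes nearest the member with the widest range. Promoters and genes came from RefSeq and exon lengths from GENCODE, both GRCm38. Alternatives were other filters, scalings and variance models, a replicate block, strands summed, sites naming 1 gene, and each library left out. Scripts were tested on simulated data. R 4.3.3, Python 3.11.15, pandas 2.3.3, numpy 2.4.6, pysam 0.24.0 and matplotlib 3.10.9 were used.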

Additional observations from a re-analysis of the deposited data

How the results depend on the processing

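With 2 libraries per population, clock genes were called in RNA and gene bodies only in fits that left out 1 aOPC library. The count of clock genes called in RNA was 0 in the reported fit and under every other filter, scaling and variance model, and ran from 0 to 4 with 1 library left out; that of the pathway genes ran from 0 to 14, that of clock gene sites from 1 to 8 (3 as reported), that of gene bodies from 0 to 4, and that of promoters stayed at 0. Sites called were 0 of 66 with at least 10 reads in every library and 5 of 299 with at least 3 reads in 2 libraries. Over the genome 0.286% and 2.33% of tested sites were called in these fits. The intron 22 site of Clock was called at 3 reads and with the replicate block. The sign turned in RNA for Per3 without aOPC replicate 3 (-0.26). Among gene bodies it turned for Arntl (-0.036), Per2 (-0.036) and Nr1d2 (-0.051) without aOPC replicate 2, for Per3 without aOPC replicate 3 (0.082), and for Per2 without aOL replicate 2 (-0.099), over sites with 3 reads in every library (-0.13) and over sites naming 1 gene (-0.0081). Other values without 1 library reached 0.88 (RNA of Per3, without aOPC replicate 2) and, for bodies, 0.36 (Arntl) and 0.32 (Nr1d2) without aOPC replicate 3 and 0.12 (Per2) without aOL replicate 3. The median of the 10 promoters turned to 0.07 without aOL replicate 2. The cause of these turns was not tested.

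The replicate numbers do not pair the libraries: deviations of the same-numbered libraries correlated at -0.0739 in RNA and -0.0964 in RRHP, and the lines differ. With the number as a replicate block, 0 clock genes in RNA, 0 gene bodies, 0 promoters and 4 of 147 clock gene sites were called. Over all features, that fit called 1.13% of bodies, 0.556% of promoters and 2.94% of sites, and in RNA 30 genes higher and 97 lower of 11133.

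Over all genes, RNA calls were 1 higher and 8 lower in aOL as reported, 0 and 0 without the filter (1339 and 1322 at an unadjusted p under 0.05), 11 and 25 at a log2 of at least 8, 8 and 15 with a variance trend, and 30 and 97 with the block. Site calls were 5382 and 4772 as reported, 229 and 261 with 10 reads in every library, 9011 and 11070 with 3 reads, and 2328 and 4262 by DESeq2. Body calls were 30 and 127, and 7 and 3 over sites with 3 reads in every library. Promoter calls were 61 and 51 as reported, 31 and 68 without TMM, 34 and 33 by DESeq2, 140 and 79 with any read, and 33 and 5 over sites with 3 reads in every library, where 3 clock genes were left. The RNA values hold no counts, and 424 clock gene sites had too few reads to test.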
